A study of Mus musculus with 3 samples.

Results

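Serpins are protease inhibitors that trap their target protease in a covalent complex after it has cut an exposed loop of the inhibitor. The clade B serpins lack a classical signal sequence and stay mostly inside the cell, where several of them guard cytotoxic lymphocytes against the granzymes that those cells store in their own granules. The 5 serpins described here are Serpina3g, Serpinb9, Serpinb9b, Serpinb6a and Serpinb6b, found by their symbols among 25906 genes in the count matrices. Most of the other 58 genes with a Serpin symbol were hardly measured in these cells, and Serpini1 was the highest of them. The 5 members were chosen by their measured levels across the 6 groups described next, so those levels and the ratios between groups are given as a description, without a test.

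Natural killer (NK) cells, live and positive for NK1.1 and NKp46, were sorted from the lung and the blood of wild-type C57BL/6 females aged 9 weeks. The mice were either naive or had received PyMT cells intravenously 6 h or 14 days earlier, which seed the lung. PyMT is a mammary tumor line from the MMTV-PyMT model, in which the polyomavirus middle T antigen is driven by a mammary tumor virus promoter. Each condition was 1 10x Genomics 3′ library, in which lung and blood cells were pooled after labelling with 2 hashtag antibodies, so no difference between conditions has a replicate and every interval below covers counting error only. By the study's description several mice stood behind each condition, and nothing in the counts tells their cells apart, so the mouse cannot serve as a replicate here. The time after injection and the library cannot be told apart. Lung and blood of 1 time shared a library but not the preparation of their cells. By the study's methods, lungs were minced and digested with collagenase, whereas blood was only treated to lyse red cells. Tissue and preparation therefore cannot be told apart in any ratio of lung over blood.

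After filtering, the 6 groups held 3676 lung and 4367 blood cells from naive mice, 4680 and 2746 cells at 6 h, and 3575 and 2069 cells at 14 days, with medians of 5909.5 to 7524 UMIs per cell. Of the kept barcodes, 7 to 16 were shared between any 2 libraries. The 6 NK cell markers (Ncr1, Klrb1c, Nkg7, Klrk1, Eomes and Prf1) summed to between 5831 CPM (a gene's share of all UMIs of a group, scaled to a common total) in 14-day lung and 8724 CPM in 6 h blood, and none of them was at 0. B cell, epithelial and platelet lists stayed below 2 CPM, and the T cell list lay between 31.1 and 57.8 CPM. Erythrocyte transcripts reached 68.2 CPM in 14-day lung and were at most 0.272 CPM elsewhere, the myeloid list reached 91.1 CPM in 14-day blood, and the neutrophil list 22.8 CPM in naive blood. The myeloid list was 4.47 CPM in naive and 27.7 CPM in 6 h lung, and 1.40 and 46.8 CPM in blood. The ILC1 list (Cxcr6, Tmem176a, Tmem176b and Il7r) was 30.6 CPM in naive and 62.8 CPM in 14-day lung, and 20.8 and 58.9 CPM in blood. The endothelial list was 49.4 CPM in naive and 84.9 CPM in 14-day lung, of which 82.5 CPM were Pecam1, a gene NK cells also express. The part of these lists in the 6 h and 14-day results below was not tested. A list of 6 dissociation and stress genes (Fos, Jun, Junb, Hspa1a, Hspa1b and Dnajb1) summed to 1306 to 1328 CPM in the 3 lung groups and to 292 to 319 CPM in the 3 blood groups.

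Serpina3g, also known as Spi2A, lies in a cluster of Serpina3 genes on chromosome 12 (chr12:104236245-104241939, plus strand, GRCm38) and inhibits lysosomal cysteine cathepsins. It is known as a target of NF-κB and interferon-γ signalling. Serpinb9 (Spi6, chr13:33003250-33017957) inhibits granzyme B, and its neighbour Serpinb9b (chr13:33027416-33041884) is a mouse inhibitor of granzyme M. Serpinb6b (chr13:32965209-32979067) is an inhibitor of granzyme A, and Serpinb6a (Spi3, chr13:33917918-34002794, minus strand) is the orthologue of human SERPINB6, an inhibitor of cathepsin G. The coding sequences of the longest GENCODE M21 transcripts were 85.5% identical between Serpinb9 and Serpinb9b and 86.1% identical between Serpinb6a and Serpinb6b, whereas any Serpinb9 gene and any Serpinb6 gene shared 67.5 to 68.1%. None of the 90-base windows of the 4 Serpinb transcripts occurred in another gene. For Serpina3g 6.36% of the windows did, in Serpina3f and other Serpina3 genes, but none of them lay in the last 500 bases, from which 3′ libraries are read.

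The upstream sequences of the 3 members that moved most between groups or cell classes are shown because they differ in the letters a reader would look for first. Each is the 250 bases before the RefSeq start on GRCm38.p6, on the plus strand, and capitals mark matches on either strand to a κB-like motif (GGG and CC with any 5 bases between them), a GAS motif of the kind STAT factors bind (TTCNNNGAA) or an interferon response element (GAAA, any 2 bases, GAAA).
Serpina3g, chr12:104235897-104236146: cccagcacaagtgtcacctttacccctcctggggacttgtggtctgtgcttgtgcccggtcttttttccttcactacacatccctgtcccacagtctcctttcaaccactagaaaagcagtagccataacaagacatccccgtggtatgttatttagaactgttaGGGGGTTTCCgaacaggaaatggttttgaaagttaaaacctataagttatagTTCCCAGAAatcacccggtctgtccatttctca
Serpinb9, chr13:33004291-33004540: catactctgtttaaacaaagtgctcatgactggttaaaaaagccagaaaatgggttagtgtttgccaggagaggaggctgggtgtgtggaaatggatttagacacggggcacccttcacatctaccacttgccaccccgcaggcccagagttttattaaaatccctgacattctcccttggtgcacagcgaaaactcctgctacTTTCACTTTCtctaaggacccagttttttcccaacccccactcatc
Serpinb9b, chr13:33027164-33027413: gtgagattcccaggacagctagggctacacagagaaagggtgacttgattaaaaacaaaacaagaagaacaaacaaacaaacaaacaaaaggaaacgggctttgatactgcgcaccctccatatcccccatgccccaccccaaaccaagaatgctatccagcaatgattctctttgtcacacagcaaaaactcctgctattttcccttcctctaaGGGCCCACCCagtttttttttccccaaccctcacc

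The Serpina3g sequence held a κB-like match that began at position -85 and a GAS match that began at -33, counted from the RefSeq start site. Serpinb9 held an interferon response element on the other strand at -46 but no κB-like match, and Serpinb9b a κB-like match at -35. The κB-like letters are common: of 32851 promoters of the same length, 45.8% held the κB-like letters, 7.02% the GAS letters and 2.98% the interferon response element. The marked matches did not overlap one another. Also searched were the motifs of T-box (AGGTGTGA), RUNX (TGTGGT) and ETS (GGAAGT) factors, found in 1.12%, 14.0% and 19.7% of all promoters, and of these only RUNX was found, at -213 of Serpina3g. The upstream sequences of Serpinb9 and Serpinb9b were 58.2% identical, against 42.2 to 48.5% for the other pairs of members. The Serpinb6b window held none of the 6 motifs. Serpinb6a has 2 RefSeq starts, and upstream of the first one a GAS match at -77 overlapped an interferon response element at -84. The windows of Serpinb6a and Serpinb6b are not printed. The Serpinb6b window runs into its GENCODE gene, and the second Serpinb6a window lies inside its own. The first Serpinb6a window lies just outside that gene. The Serpinb9 window lies inside the GENCODE gene but overlaps no exon. The Serpina3g window ends at 104236146, before its GENCODE gene starts at 104236245.

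The plot of serpin levels by group shows the patterns of the 5 members, of which those of Serpinb9 and Serpinb6b were close.

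**Figure D1:**
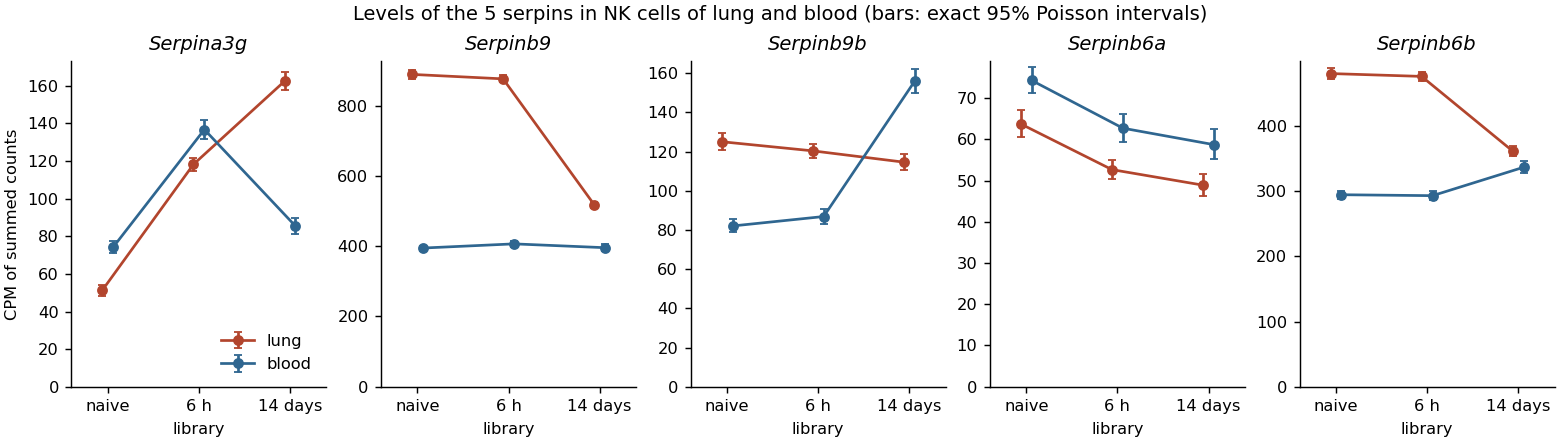
CPM of the summed counts of each serpin (vertical axis, starting at 0, with its own scale in each panel) in the naive, 6 h and 14-day libraries (horizontal axis), for lung in red and blood in blue; bars are exact 95% Poisson intervals, which cover counting error only, and the lines join values of 1 tissue. Serpina3g was higher in both tissues at 6 h, Serpinb9 and Serpinb6b were higher in lung than in blood, and Serpinb9b reached 156 CPM in 14-day blood.

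Serpinb9 was the most abundant of the 5 in every group and ranked between 163rd and 364th of the 25906 genes. Serpinb6b was second, with 293 to 480.2 CPM, and the other three lay between 48.9 and 162 CPM. These 3′ UMI counts do not grow with transcript length. Other differences in capture between genes were not measured, so the order of the members is one of counts. Per cell, thinned to 3000 UMIs, a Serpinb9 UMI was found in 61.8 to 85.1% of cells, a Serpinb6b UMI in 49.5 to 63.0%, and a UMI of the other members in 11.7 to 28.0%. In naive lung 3.54% of cells held no UMI of any member, against 12.1% in naive blood. No other cell type was examined for these genes as a floor, so the free RNA in the droplets is given instead. At its upper limit it could make up 22.6% of the Serpinb9 counts in 6 h blood, and at most 17.4% of those of any other member in any group.

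Of the other 58 serpins, 23 had no count in any group, and only Serpini1 reached 20 CPM. Serpini1, neuroserpin, lay at 32.6 CPM in naive lung and 14.9 CPM in 14-day lung, and at 33.5 and 20.2 CPM in blood at those times. Its log2 ratio of 14 days over naive was -1.13 in lung and -0.73 in blood. Both were past 1.5-fold lower, where 11.3% of all genes were in lung and 2.75% in blood. Just below the filter were Serpina3f and Serpine2, with at most 19.7 and 16.0 CPM, both in 14-day lung. The Serpina3f levels had the same order in lung as those of its neighbour Serpina3g, with 2.09 CPM in naive lung, 8.91 CPM at 6 h and 19.7 CPM at 14 days.

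The lysosomal cathepsin inhibitor Serpina3g was the member that differed most after tumor cell injection. Its level was 51.3 CPM in naive lung, 118 CPM at 6 h and 162 CPM at 14 days. In blood it was 74.3 CPM in naive mice, 137 CPM at 6 h and 85.4 CPM at 14 days. Lung was thus highest at 14 days and blood at 6 h, and no neighbouring pair in the order of the 6 levels overlapped in counting error. At 6 h the log2 ratio over naive was 1.20 in lung (95% interval 1.11 to 1.30) and 0.88 in blood (0.80 to 0.96). Among all genes that reached 20 CPM on either side of the comparison, these ratios ranked 2nd of 6404 in lung and 3rd of 6527 in blood. At 14 days the log2 ratio was 1.66 in lung (1.57 to 1.75), rank 37 of 6482, and 0.20 in blood (0.10 to 0.30). The log2 ratio was therefore 1.46 larger in lung than in blood on the log2 scale (1.33 to 1.59). Lung was below blood in naive mice (log2 ratio -0.53) and at 6 h (-0.21), and above it at 14 days (0.93). The share of cells with a Serpina3g UMI was 12.5% in naive lung, 25.5% at 6 h (24.3 to 26.8%) and 27.3% at 14 days (25.8 to 28.8%). In blood it was 15.5%, 28.0% and 17.7%. The lung shares at 6 h and 14 days thus overlapped in counting error, unlike the levels. The highest share was that of 6 h blood (26.3 to 29.7%), and it overlapped that of 14-day lung in counting error. The variance of the UMIs over their mean was 1.29 in naive lung and 1.99 in 14-day lung, where single cells held up to 11 of 3000 UMIs. Erythrocyte transcripts were also highest in 14-day lung, and without cells that held at least 2 UMIs of markers of other cell types the 14-day lung ratio of Serpina3g was 1.56. The myeloid list was higher at 6 h than in naive mice in both tissues. With the same cells left out, the 6 h lung ratio of Serpina3g was 1.24. In 6 h blood its ratio lay between 0.87 and 1.13 over all alternative settings of the processing. This filter included Pecam1 but no gene of the T cell or ILC1 lists, and kept 83.4% of 14-day lung cells.

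Serpina3g counts were set beside those of the cathepsins its protein can bind. Cathepsin B transcripts (Ctsb) lay between 30.8 and 42.2 CPM, and Serpina3g had 1.67 counts per Ctsb count in naive lung, 3.58 at 6 h and 3.85 at 14 days. In blood the values were 2.16, 3.75 and 2.22. Cathepsin L transcripts (Ctsl) were scarcer, at 5.12 to 12.5 CPM, and were higher in lung than in blood at all 3 times.

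Serpinb9, the granzyme B inhibitor, set lung apart from blood most in naive mice and at 6 h. Lung levels were 889 CPM in naive mice, 877 CPM at 6 h and 519 CPM at 14 days. Blood levels were 395, 407 and 396 CPM. All lung groups were above all blood groups, and in the order of the levels the 3 blood values and the 2 highest lung values did not differ from the next one beyond counting error. Between the ends of the blood order, 6 h over naive gave a log2 ratio of 0.04 (0.003 to 0.08). The log2 ratio of lung over blood was 1.17 in naive mice (1.14 to 1.20), 1.11 at 6 h (1.07 to 1.14) and 0.39 at 14 days (0.35 to 0.43). Among all genes that reached 20 CPM, these were rank 172 of 6640, 187 of 6589 and 551 of 6467. The lower lung level at 14 days gave a log2 ratio over naive of -0.78 (-0.81 to -0.75), while blood gave 0.00 (-0.04 to 0.05). The lung ratio was rank 298 from the lowest of 6482 genes. Relative to the median of all genes it was -0.56, not past 1.5-fold. A Serpinb9 UMI was found in 85.1% of naive lung cells and in 65.6% of 14-day lung cells. The stress list was also higher in lung than in blood at each time, and its part in the result was not tested beyond leaving cells out. Without thinned cells that held a UMI of any of its 6 genes, the Serpinb9 log2 ratio of lung over blood was 1.27 in naive mice, 0.99 at 6 h and 0.29 at 14 days. This left 10.2 to 11.3% of the thinned lung cells and 44.2 to 47.6% of the thinned blood cells. For Serpinb9b the values were 0.77, 0.44 and 0.28, the last against -0.44 in the main result, and for Serpinb6b 0.64, 0.53 and 0.02. These ratios were taken on thinned counts, unlike the main result. Thinning alone moved a ratio of a member by up to 0.18.

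Transcripts of granzyme B (Gzmb) differed between times in blood, where Serpinb9 hardly did, with 864 CPM in naive mice, 1009.6 CPM at 6 h and 1375 CPM at 14 days. In lung they lay at 1070.1, 1239.9 and 1222 CPM. Serpinb9 had 0.831 counts per Gzmb count in naive lung, 0.707 at 6 h and 0.424 at 14 days. In blood it had 0.457, 0.403 and 0.288. The number of inhibitor counts per granzyme count was thus lowest at 14 days in both tissues, with Serpinb9 lower in lung and Gzmb higher in blood. In the plot of Serpinb9 counts per Gzmb count the lung value lies above the blood value at each time.

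**Figure D2:**
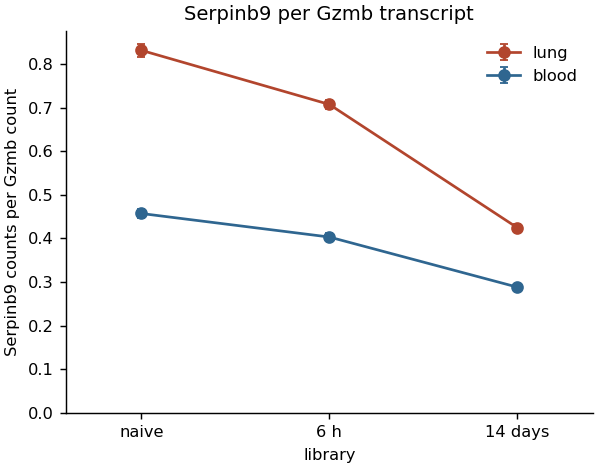
Serpinb9 counts divided by Gzmb counts (vertical axis, starting at 0) in the naive, 6 h and 14-day libraries (horizontal axis), for lung in red and blood in blue, with exact 95% intervals for counting error. The ratio went from 0.831 in naive lung to 0.424 in 14-day lung, and from 0.457 to 0.288 in blood.

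Serpinb9b, the granzyme M inhibitor beside Serpinb9 on the chromosome, differed between groups in another way. Its lung levels were 125 CPM in naive mice, 120 CPM at 6 h and 115 CPM at 14 days. Its blood levels were 82.1, 86.9 and 156 CPM, so that 14-day blood was the highest of all groups. At 14 days the log2 ratio over naive was 0.93 in blood (0.85 to 1.01), rank 10 of 6549 genes, and -0.13 in lung (-0.20 to -0.05). The myeloid list was also highest in 14-day blood, and without cells that held markers of other cell types, by the same filter as above, the blood ratio was 0.96. At 6 h both ratios, -0.05 in lung and 0.08 in blood, had intervals that included 0. The log2 ratio of lung over blood was 0.61 in naive mice, 0.47 at 6 h and -0.44 at 14 days. The UMIs were unevenly spread over the cells: only 14.4 to 22.5% of cells held one, yet the variance over the mean was 2.35 to 3.01, above that of each other member in the same group, and up to 15 UMIs were found in 1 cell. Granzyme M transcripts (Gzmm) were rare, between 2.87 and 15.4 CPM, and there were 5.66 to 39.9 Serpinb9b counts for each.

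The granzyme A inhibitor Serpinb6b had a pattern close to that of Serpinb9. It lay at 480.2, 476 and 361 CPM in lung of naive mice, at 6 h and at 14 days, and at 294, 293 and 337 CPM in blood. The 3 lung groups were again above the 3 blood groups, and the first 2 times did not differ beyond counting error within a tissue. The log2 ratio of lung over blood was 0.71 in naive mice (0.67 to 0.75), 0.70 at 6 h (0.66 to 0.74) and 0.10 at 14 days (0.06 to 0.15). At 14 days it was -0.41 over naive in lung (-0.45 to -0.37) and 0.19 in blood (0.14 to 0.24), neither past 1.5-fold. Over the 6 groups its log2 levels correlated with those of Serpinb9 at r = 0.971, as a description over points that share 3 libraries. Granzyme A transcripts (Gzma) were far more abundant, at 9435 to 13978 CPM, so that there were 23.6 to 41.5 Gzma counts for each Serpinb6b count, more in blood than in lung at each time.

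Serpinb6a varied least, from 48.9 to 74.3 CPM. In lung it lay at 63.7, 52.6 and 48.9 CPM in naive mice, at 6 h and at 14 days, and in blood at 74.3, 62.7 and 58.7 CPM. Both tissues were highest in naive mice, and lung was below blood at each time, opposite to Serpinb6b. The log2 ratio over naive was -0.28 in lung and -0.24 in blood at 6 h, and -0.38 and -0.34 at 14 days. None passed 1.5-fold. The median log2 ratio of all genes was itself -0.21 in lung and -0.17 in blood at 14 days over naive (-0.10 in 14-day lung over blood), and relative to these medians Serpinb6a gave -0.17 in both tissues.

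In each comparison 1 to 3 of the 5 members passed 1.5-fold, given here beside the share of all genes. The members were chosen in view of these values. In 14-day lung over naive lung, 1 of the 5 was higher, Serpina3g, where 4.37% of all 6482 genes were, and 1 was lower, Serpinb9, where 11.3% were. In 14-day over naive blood, 1 was higher, Serpinb9b, against 0.718% of all genes, and none was lower, against 2.75%. At 6 h over naive, 1 was higher in lung, Serpina3g, against 0.359% of all genes, and none was lower, against 0.0625%. In blood at 6 h, Serpina3g again was the 1 higher member, against 0.214%, and none was lower, against 0.153%. In lung over blood, 3 members were higher in naive mice (Serpinb9, Serpinb6b and Serpinb9b), against 6.46% of all genes, and none was lower, against 3.06%. At 6 h these were Serpinb9 and Serpinb6b, against 6.12% higher and 2.49% lower among all genes. At 14 days it was Serpina3g alone, against 5.58% higher and 3.42% lower. The median log2 ratio of the 5 was -0.38 in 14-day lung, 0.19 in 14-day blood, -0.02 in lung and 0.04 in blood at 6 h, and 0.61, 0.47 and 0.10 in lung over blood of naive, 6 h and 14-day mice. The comparisons with naive mice share the naive groups.

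**Figure D3:**
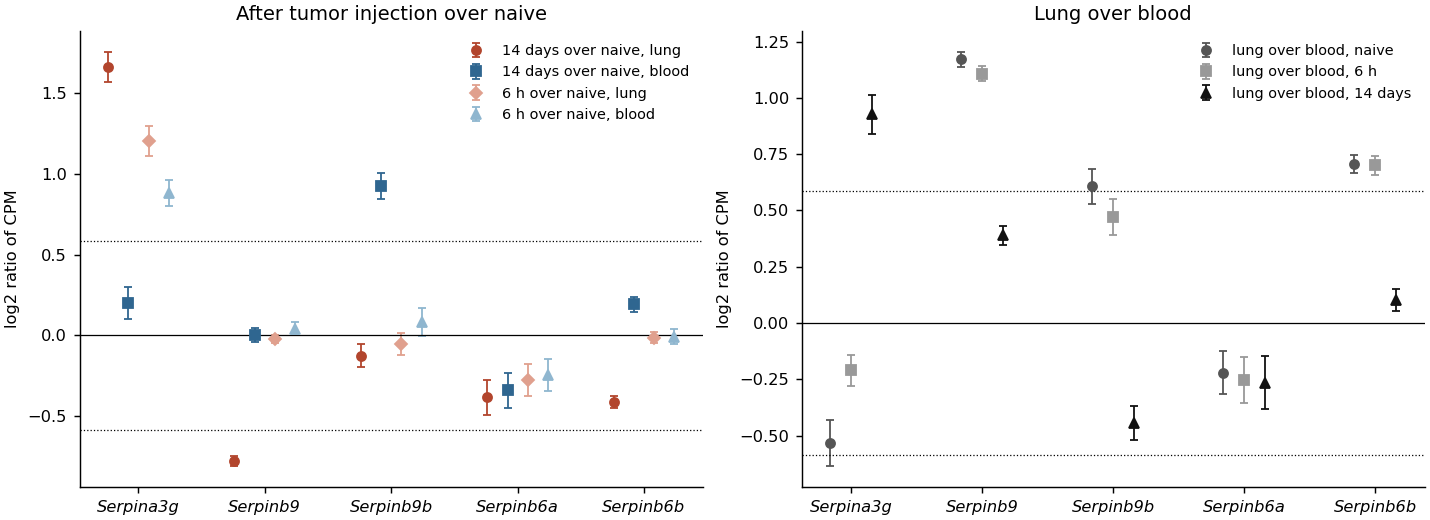
Log2 ratios of CPM (vertical axes) of the 5 serpins after tumor cell injection over naive (left, lung in reds and blood in blues, 14 days dark and 6 h pale) and in lung over blood (right, circle naive, square 6 h, triangle 14 days); bars are exact 95% intervals for counting error, the solid line is no difference and the dotted lines are 1.5-fold. Serpina3g in 14-day lung stands highest at 1.66 on the left, and Serpinb9 in naive lung highest at 1.17 on the right.

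Other genes of the same protease and inhibitor system were read as whole lists, chosen with earlier results of these data known. The shares of all genes past 1.5-fold in each comparison are those given above. Of 20 granzymes and cathepsins, 10 reached 20 CPM in 14-day or naive lung, and 2 were past 1.5-fold, both higher: Gzmc (74.1 CPM against 2.81 CPM) and the cysteine cathepsin Ctss (47.9 CPM against 20.5 CPM). In 14-day blood 1 of 9 passed, Gzmb, higher by a log2 ratio of 0.67. At 6 h only Ctss of 9 passed, with log2 ratios of 0.62 (lung) and 0.69 (blood). The myeloid list was also higher than in naive mice at 6 h and 14 days in both tissues. Its part in the Ctss values was not tested. In lung over blood none passed in naive mice or at 6 h, and Gzmc (3.61) and Ctss (0.72) did at 14 days. Of 11 other protease inhibitors, such as cystatins and TIMPs, 4 were measured at 20 CPM and none passed 1.5-fold in any of the 7 comparisons.

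A list of 10 regulators, mostly of NF-κB and STAT signalling, was also read, since Serpina3g is a known target of such pathways. At 6 h the only one past 1.5-fold was the NF-κB subunit Nfkb2, higher by 0.74 in lung and 0.59 in blood on the log2 scale. Of all genes 0.359% were higher in lung and 0.214% in blood. In 14-day lung 3 of the 10 were lower (Stat3, Stat5a and Stat5b, log2 ratios -0.70 to -0.78), against 11.3% of all genes, and none was higher. The median log2 ratio of the list was -0.17 there, against -0.21 for all genes. In 14-day blood none of the 9 that reached 20 CPM passed. In lung over blood 3, 6 and 5 were higher in naive, 6 h and 14-day mice, where 6.46, 6.12 and 5.58% of all genes were. Rel, Relb and Stat3 were among them each time. The stress genes that reached 20 CPM had median log2 ratios of 1.98, 2.07 and 3.36 in these comparisons. Their part in the regulator values was not tested. The interferon-response factor Irf1 lay between 71.4 and 106 CPM.

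Levels within the cells of each group were then compared, again as a description. Murine NK cells lose CD27 and gain CD11b (Itgam) as they mature, and Klrg1 and Cx3cr1 mark late stages. Cells were put in classes by UMIs of these genes after thinning to 3000 UMIs (Itgam+Cd27- cells had an Itgam UMI and no Cd27 UMI), and the counts of each class were summed. These classes rest on single UMIs, and a cell without one can still express the gene. Over the classes below, no difference has a replicate, and the 6 groups share 3 libraries.

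Serpina3g was lower in the more mature classes in all 6 groups. In Itgam+Cd27- over Cd27+Itgam- cells its log2 ratio lay between -1.31 (14-day blood) and -0.61 (6 h blood). In 14-day blood these were 61.8 CPM in 936 cells and 153 CPM in 153 cells. In cells with UMIs of both Klrg1 and Cx3cr1 over cells with neither, the log2 ratio lay between -2.59 and -0.85. The extreme was 14-day lung, with 32.0 CPM in 216 cells against 193 CPM in 2512 cells. In naive lung the same classes held 30.7 and 59.7 CPM. With classes called on all counts of a cell, the class with both genes held 31.6 CPM in naive and 50.2 CPM in 14-day lung, and the class with neither 66.8 and 207 CPM.

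Serpinb9b had the opposite gradient in all 6 groups, and a steeper one than its neighbour Serpinb9. The log2 ratio of Itgam+Cd27- over Cd27+Itgam- cells was 0.92 to 1.97 for Serpinb9b and 0.18 to 0.80 for Serpinb9. For cells with both Klrg1 and Cx3cr1 over cells with neither it was 0.86 to 1.73 for Serpinb9b and 0.08 to 0.48 for Serpinb9. In each group the Serpinb9b ratio was the larger of the pair in both contrasts. Serpinb6a was higher in Itgam+Cd27- cells in 5 of 6 groups by at most 0.45, and Serpinb6b had no common direction, with 3 groups higher and 1 lower.

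**Figure D4:**
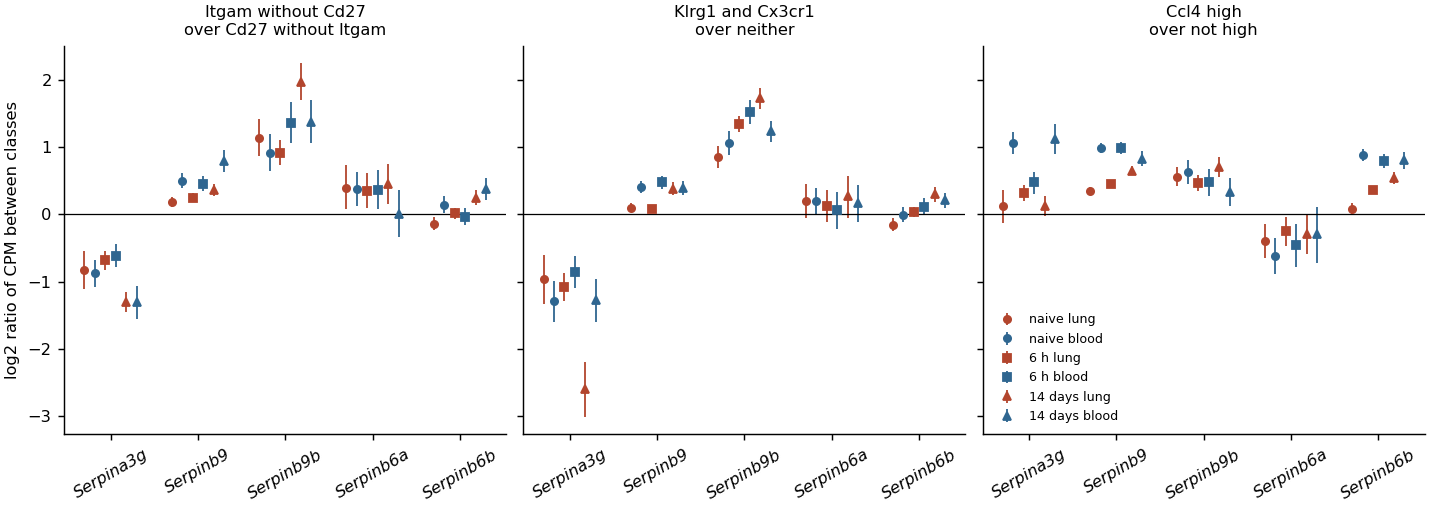
Log2 ratios of CPM between classes of cells (vertical axis) for the 5 serpins in each of the 6 groups (lung red, blood blue; circle naive, square 6 h, triangle 14 days), with exact 95% intervals for counting error. Left, Itgam+Cd27- over Cd27+Itgam- cells; middle, cells with both Klrg1 and Cx3cr1 over cells with neither; right, cells with at least 10 Ccl4 UMIs over the others. Serpina3g lies below 0 and Serpinb9b above 0 in all groups of the first 2 panels.

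The same 2 serpins diverged along the granzymes themselves. Cells of each group were ranked by their Gzma or Gzmb UMIs and cut into 4 equal parts, with ties broken by their order in the file. From the lowest to the highest Gzma part, Serpinb9b went from 14.6 to 240.2 CPM in 14-day lung (log2 ratio 4.04, 3.78 to 4.31) and from 71.1 to 170 CPM in naive lung (1.26). In blood it went from 72.6 to 229 CPM at 14 days, from 31.0 to 147 CPM at 6 h and from 44.4 to 126 CPM in naive mice. Along Gzmb its log2 ratio was 1.71 to 3.05, again largest in 14-day lung. Serpinb9b counts thus followed granzyme A and B transcripts in all 6 groups. Serpinb9 went with them too, by 0.34 to 1.09 along Gzma and 0.36 to 0.94 along Gzmb. Serpina3g went down along Gzma, by log2 ratios of -1.64 (14-day lung, 248 to 79.4 CPM) to -0.53 (6 h lung), but along Gzmb its ratio lay between -0.33 and 0.00, and only naive lung had an interval off 0. For Serpinb6b, the inhibitor of granzyme A, the direction along Gzma depended on how cells were ranked. Its log2 ratio was -0.12 to 0.74 with thinned Gzma UMIs, 3 groups higher and 1 lower, and 0.12 to 0.83 with all Gzma UMIs, higher in all 6 groups. Serpinb6a lay at -0.16 to 0.17, with all 6 intervals including 0, and at -0.32 to 0.11 on all UMIs. The plot by granzyme parts shows each step.

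**Figure D5:**
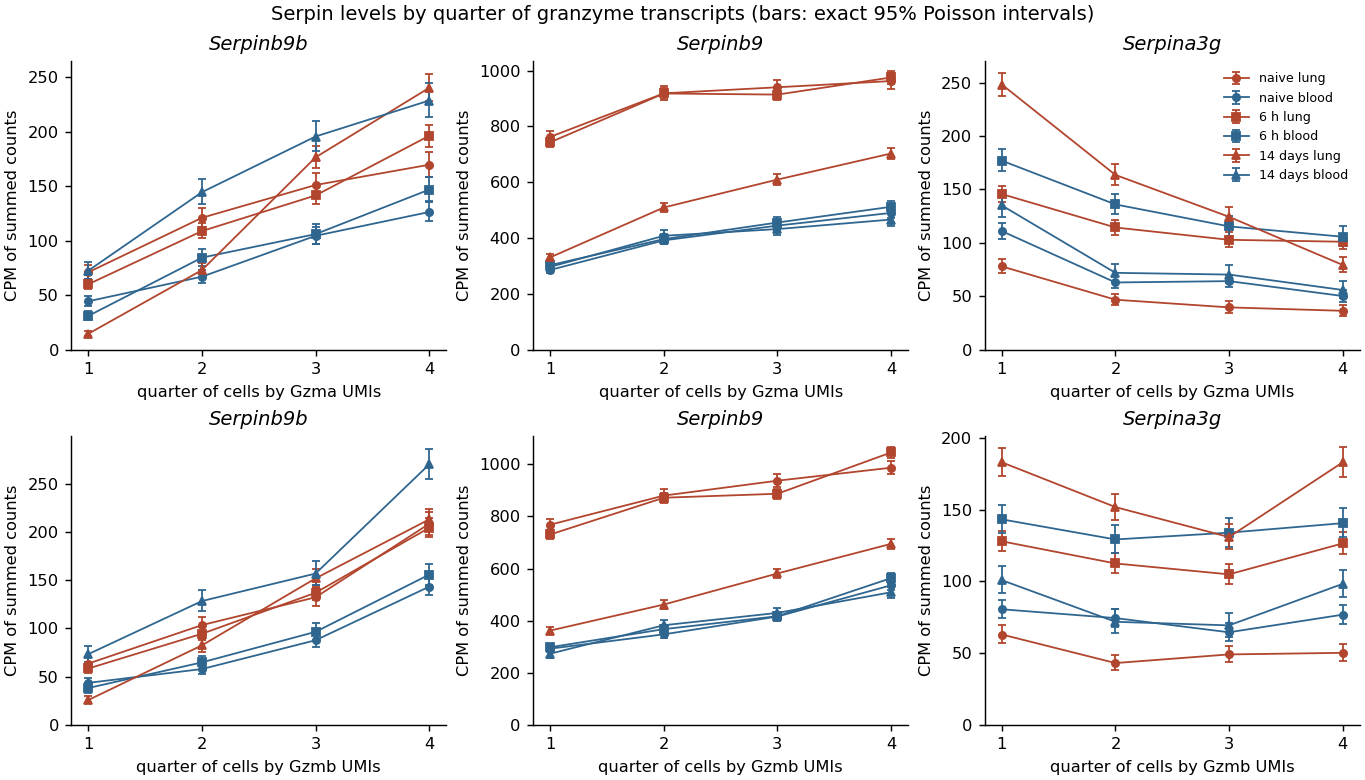
CPM of the summed counts of Serpinb9b, Serpinb9 and Serpina3g (vertical axes, starting at 0) in cells of each group ranked by Gzma (top row) or Gzmb (bottom row) UMIs and cut into 4 equal parts (horizontal axes, 1 lowest); lung red, blood blue, circle naive, square 6 h, triangle 14 days, bars exact 95% Poisson intervals. Serpinb9b climbs from 14.6 to 240.2 CPM along Gzma in 14-day lung, and Serpina3g goes from 248 to 79.4 CPM there.

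Cells with at least 10 UMIs of Ccl4, a chemokine made by activated NK cells, made up 6.50 to 13.8% of a group. Serpinb9 was higher in them in all 6 groups, by 0.35 to 0.99, Serpinb9b by 0.34 to 0.71 and Serpinb6b by 0.08 to 0.89. Serpina3g was higher by 1.07 in naive blood and 1.13 in 14-day blood and its ratios of 0.12 and 0.13 in naive and 14-day lung had intervals that included 0. Serpinb6a was lower in 4 of the 6 groups and within counting error in the other two. Between 19 and 135 cells of a group lay at the cut or 1 UMI below it.

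Cells with UMIs of both Itga1 (CD49a) and Pmepa1, genes of tissue-resident and TGF-β-exposed cells, were 7.18% of 14-day lung (254 cells) and at most 0.323% of any other group. Within 14-day lung they had less Serpinb9b than cells with neither gene, 27.8 against 153 CPM (log2 ratio -2.46), less Serpinb6b (222 against 405 CPM) and less Serpinb9 (338 against 589 CPM). Their Serpina3g level was 174 CPM against 141 CPM (0.31, 0.14 to 0.47). With classes called on all counts, it was 200 CPM in 601 cells against 117 CPM in 1817 cells (0.77, 0.66 to 0.89). On all counts 6 h lung could be split as well, into 60 and 3743 cells. There the log2 ratio was -0.12 for Serpinb9b (-0.51 to 0.25) and -0.06 for Serpinb6b (-0.25 to 0.12). It was -0.14 for Serpinb9 (-0.29 to -0.005) and 0.23 for Serpina3g (-0.13 to 0.57). Cells of 14-day lung were also classed by 7 interferon-response genes, and the overlap with the Itga1 and Pmepa1 cells was not counted. The 96 cells with at least 5 UMIs summed over these genes held 369 CPM of Serpina3g against 156 CPM in the rest. They held 18.7 CPM of Serpinb9b against 118 CPM. At most 11 cells in any other group reached that cut, and 40 cells of 14-day lung lay at it or 1 UMI below. Cells with at least 2 UMIs of Mki67 and Top2a were under 50 in each group after thinning. Called on all counts, where deeper cells pass more easily, they numbered 51 to 141. Serpina3g was then lower in them in 5 groups (log2 ratios -0.80 to -0.55) and 0.00 in 14-day lung, and Serpinb9b was lower in 5 groups and higher in 14-day blood (0.39).

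The 14-day lung values moved when cells with a UMI of Itga1 or Pmepa1 among all their counts were left out of all groups, which kept 51.5% of 14-day lung cells and 80.7 to 92.6% of the others. Serpina3g over naive was then 1.25 on the log2 scale in place of 1.66, and Serpinb9 -0.46 in place of -0.78, no longer past 1.5-fold. Serpinb9b turned from -0.13 to 0.61, past 1.5-fold and in the same direction as in blood. Serpinb6b moved from -0.41 to -0.12. In lung over blood at 14 days, Serpinb9 was 0.65 in place of 0.39, Serpinb9b 0.27 in place of -0.44, and Serpinb6b 0.34 in place of 0.10. In bulk sums, fewer cells of a kind and less RNA in each cannot be told apart. Within the maturation classes above, Serpinb9 was 589 CPM in 14-day and 926 CPM in naive lung in Itgam+Cd27- cells. In Cd27+Itgam- cells it was 458 and 815 CPM. Serpinb9b was 171 and 151 CPM in the first of these classes, and 43.4 and 68.6 CPM in the second. The part of cell numbers and of levels per cell was not tested.

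Cell by cell, the genes most like each member were read from the thinned UMIs as the median over the 6 groups of a correlation over cells, out of 4207 genes with at least 50 CPM in some group. These are descriptions over cells of shared libraries, and sparse counts keep them low. For Serpina3g they were the chemokine gene Xcl1 (r = 0.235), the cytokine gene Ltb (0.146) and Tnfrsf9, which encodes 4-1BB (0.141), and the lowest was Zeb2, a factor of late NK cell maturation (-0.143). For Serpinb9 they were perforin (Prf1, 0.221), Irf8 (0.220) and Gzmb (0.195). For Serpinb9b they were Gzmb (0.185), Prf1 (0.152) and Gzma (0.149). For Serpinb6b, Ccl4 was highest at 0.119, and for Serpinb6a Ripor2 at 0.0515, values too weak to read. The members were hardly alike among themselves, with medians from -0.02 to 0.05.

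Over the 6 summed groups, the log2 levels most like Serpina3g were those of Rcc2 (r = 0.995), Ncf4 (0.991) and Zbp1 (0.980). They were Srsf5, Arrdc3 and Gna13 for Serpinb9 (0.996 to 0.999), Timp2, Gpc1 and Aup1 for Serpinb9b (0.941 to 0.957), Sec24c and Klra4 for Serpinb6a (0.995 to 0.997), and Hes1, Abcb1a and Mosmo for Serpinb6b (0.982 to 0.990). With 6 points out of 4207 genes, values of this size are a description only.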

How the data were processed

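The authors deposited raw UMI counts of genes and hashtags for every barcode, without normalization. Cell Ranger was used (7.1.0 in the file headers, 7.0.1 in the methods) on GRCm38.p6 with GENCODE M23. Positions here come from GENCODE M21 and promoters from RefSeq GRCm38.p6; all 5 members matched.

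Barcodes with 800 to 5000 genes and at most 6% mitochondrial counts were kept. Tissue was the hashtag with at least 90% of tag counts (B0304 lung, B0306 blood, matched by their order of naming in the methods), which left out 342, 158 and 141 cells of the naive, 6 h and 14-day libraries, those with both tags included; doublets within a tissue stayed in. Counts were summed per group (1.69e+07 to 3.59e+07 UMIs) and given as CPM with exact Poisson intervals; ratios had exact intervals conditional on the summed counts, all at 95% and for counting error only. With 1 library per condition there was no test and no p-value; a gene was called when past 1.5-fold, among those that reached 20 CPM on either side, and a gene at 0 took the floor of 3 counts. Shares of cells and classes used cells thinned to 3000 UMIs (6 to 86 cells per group were shallower), without which shares would follow depth. Free RNA was limited from markers of other cells in barcodes with at most 100 counts, to 10.7% of counts (naive), 11.5% (6 h) and 1.38% (14 days). The ratios were checked on simulated data with known changes. These data were drawn with counting error only, so spread between cells, mice or libraries was not checked. Python 3.11.15, numpy 2.4.6, scipy 1.17.1 and pandas 2.3.3 were used.

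Members, gene lists, classes and alternatives were chosen with earlier results of these data known. Genes named are the members, other serpins and list genes that reached 20 CPM (those past 1.5-fold and the members' target proteases), and the genes most like a member across groups (up to 3, with 1 gene not reported here) and cells (up to 5); Serpina3f, Serpine2, Gzmm, Ctsl, Irf1 and Zeb2 were named after their values were seen. The alternatives on stress genes and on Itga1 or Pmepa1 were added after seeing the data.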

Additional observations from a re-analysis of the deposited data

Results flagged for a closer look

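At 14 days over naive, 2 members went opposite ways in lung and blood in the main result, with both intervals off 0. For Serpinb9b the lung ratio was -0.13 (log2) and the blood ratio 0.93, and for Serpinb6b they were -0.41 and 0.19. The lung ratio minus the blood ratio was -1.05 (95% interval for counting error -1.16 to -0.95) for Serpinb9b and -0.60 (-0.66 to -0.54) for Serpinb6b. With 1 library per condition the difference between the tissues was not tested. Without cells that held a UMI of Itga1 or Pmepa1 the lung ratios were 0.61 for Serpinb9b, in the direction of blood, and -0.12 for Serpinb6b. The Serpinb9b lung ratio was also above 0 when centred on the median gene (0.09) and, on thinned counts, without cells with any of 6 stress genes (0.24). Over all alternatives it lay between -0.20 and 0.61, so its direction in lung depended on the processing. In blood it lay between 0.73 and 1.09. Serpinb6b kept both directions, with -0.46 to -0.12 in lung and 0.12 to 0.36 in blood.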

How the results depend on the processing

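Of 98 recounts of the members past 1.5-fold in the 7 comparisons, 89 stayed within 1.5 times the count reported. Only the number of members was compared, not which they were or their direction. Without cells with a UMI of Itga1 or Pmepa1, the 2 in 14-day over naive lung were Serpina3g and Serpinb9b, both higher. In the main result they were Serpina3g, higher, and Serpinb9, lower. Centred on the median gene, the count in 14-day over naive lung was 1 (Serpina3g) in place of 2. With 2-fold in place of 1.5-fold the counts were 1 in 14-day lung, 0 in 14-day blood and 0 in 6 h blood over naive, and 1, 1 and 0 in lung over blood of naive, 6 h and 14-day mice. Without cells with any of 6 stress genes the count in lung over blood at 6 h was 1 (Serpinb9), and without cells with a UMI of Itga1 or Pmepa1 it was 2 at 14 days (Serpina3g and Serpinb9). No ratio past 1.5-fold changed sign in 143 recalculations, and 140 stayed past it; of all 455, 336 stayed within the counting interval. Of 160 class ratios, 146 kept their sign with classes called on all counts, with a largest shift of 0.67 (log2). Centred on the median, the genes past 1.5-fold in 14-day over naive split 496 higher to 269 lower in lung (283 to 730 uncentred) and 139 to 25 in blood (47 to 180); they split 20 to 3 in 6 h blood (14 to 10), and 517 to 124, 482 to 98 and 453 to 136 in lung over blood (429 to 203, 403 to 164, 361 to 221). No paired analysis was possible because each condition is 1 library. Lung over blood is a ratio within a library, but of tissues that were prepared differently. The 3 times are different conditions and not replicates of it. Depth left each member with at least 994 counts in a group, so replicates and not counts are the limit; the effect of library, mouse and time cannot be told apart.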
